A study of Sus scrofa with 12 samples.

Results

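LIN28A and LIN28B, the 2 genes of the LIN28 family of RNA-binding proteins, were followed by RNA sequencing in 12 libraries of pig induced pluripotent stem cells. They are 2 of the 24358 genes in the expression tables, and both passed the filter on low values in both tables. LIN28A was chosen by its measured differences in the 2 comparisons of the study, being higher in knock-in than in WT cells and lower with Activin A than with SB431542, the latter opposite to NANOG. The values of LIN28A and of NANOG in those comparisons are therefore given as a description, with no test. LIN28B was taken in by name as the only other member of the family, and its values had no part in the choice. On Sscrofa11.1, the pig build of the files, RefSeq annotates LIN28A (ENSSSCG00000003557) as a protein-coding gene of 12373 bp at chr6:83806178-83818550. It annotates LIN28B (ENSSSCG00000037612) as a protein-coding gene of 122841 bp at chr1:71173291-71296131. No sequence of either gene was analysed here, and exon boundaries and UTRs were not used.

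The libraries fall into 4 groups of 3, and all 4 come from pig pericyte-derived PC-iPS cells, an induced pluripotent line made with the reprogramming factors OCT4, SOX2, KLF4 and MYC. WT PC-iPS cells carry no reporter and were grown in LCDMV medium, which holds LIF, CHIR99021, DIM, MIH and vitamin C. The NANOG tdTomato knock-in cells were grown in the same medium and carry a cassette of FLAG, P2A, tdTomato and a puromycin resistance gene at NANOG. The remaining groups are knock-in cells given Activin A, a ligand that signals through SMAD proteins, or SB431542, an inhibitor of the receptors for Activin and TGF-β. In the study's culture tests these treatments were made in LCDMV without LIF, and the doses and durations of the sequenced samples are not given in the sources used here. The 3 knock-in lines came from separate transfections and were selected with puromycin and sorted for tdTomato, so NANOG itself took part in the choice of these cells. They are mixed populations and not single clones, and their cells may carry the cassette on 1 or more copies of NANOG on chromosomes 1 and 5 or on none. Feeder cells were removed by letting them attach for an hour before RNA was taken. Libraries are numbered 1 to 3 in each group. The labels do not say which knock-in line an Activin A or SB431542 library came from. In the knock-in, Activin A and SB431542 groups the numbers paired the libraries in a check of their deviations, whereas the WT numbers did not pair with the others. For WT, Activin A and SB431542 the labels do not say that the 3 libraries came from separate cultures. The p-values measure only the spread between these libraries.

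LIN28 proteins bind the precursors of the let-7 microRNAs and keep them from being matured, and LIN28A does so in the cytoplasm by bringing in a terminal uridylyltransferase. Mature let-7 represses a set of mRNAs for growth and cell-cycle proteins, and LIN28A and LIN28B mRNAs are themselves let-7 targets, so the proteins and the microRNA inhibit each other. LIN28 proteins also bind many mRNAs directly. LIN28A is known as a marker of pluripotent cells and was among the first factors used to reprogram human cells, and LIN28B is known from early development and from tumours.

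The tables give FPKM, fragments scaled to the length of a gene's exons and to the mapped reads of the library. WT and knock-in were deposited as 1 table, and Activin A and SB431542 as another. Tests were made within a table, and any level set across the tables rests on values that were normalized separately. Such levels may also differ by medium, since the study's culture tests of the treatments left out LIF. FPKM sums ran from 364241 to 390320 and 15339 to 15827 genes were above 0 per library. Total depth is unknown. Relative depth, read from the steps between low values, was 0.559 to 0.633 in WT, 0.727 to 0.986 in knock-in and 0.824 to 0.973 with Activin A or SB431542, so the WT libraries were the shallowest. No 2 libraries were copies of each other, the highest correlation being 0.9958. Of the markers of pluripotent cells, SOX2 had group means of 43.4 to 69.4 FPKM and SALL4 of 10.7 to 15.9 FPKM. EPCAM had group means of 0.334 to 0.38 FPKM, TDGF1 and DPPA5 had group means of 0.234 FPKM or less, and POU5F1 has no identifier paired with its symbol here. Of the markers of the naive state, ZFP42 and KLF17 were listed at 0 in all 12 libraries, and KLF4, a reprogramming factor, had group means of 72.5 to 80.5 FPKM. OTX2, a marker of the primed state, had group means of 58.2 to 79.0 FPKM. In knock-in against WT cells 5 of the 5 naive markers tested had a higher mean log2 value and KLF2 was called (1.32, SE 0.21, limma adjusted p = 0.0195), with means of 0.0334 and 1.66 FPKM in WT and knock-in. Of the primed markers 2 were higher and 6 lower by the mean, and SOX11 was called higher (1.23, SE 0.16, limma adjusted p = 0.0105), with means of 27.3 and 64.2 FPKM. Over all genes 1.61% were called higher and 0.706% lower, where a call needed an absolute log2 difference of at least 1 and a limma adjusted p of at most 0.05.

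LIN28A was lowest in WT cells, intermediate with Activin A and in untreated knock-in cells, and highest with SB431542. In WT the 3 libraries gave 32.8, 47.6 and 40.1 FPKM, a mean of 40.2 ± 7.40 (SD, n = 3). In knock-in cells they gave 163, 285 and 108 FPKM, a mean of 185 ± 90.8 (SD, n = 3). All 3 knock-in libraries lay above all 3 WT libraries, and the lowest of them, 108 FPKM, stood well clear of the highest WT value. Over all genes tested in that table, 19.0% had every knock-in library above every WT library. The ratio of the means was 4.61, and the difference in mean log2(FPKM + 1) was 2.08 with a standard error of 0.33. Of all genes tested there, 1.61% were called higher in knock-in cells.

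With Activin A, LIN28A was at 90.0, 200.0 and 67.5 FPKM in numbers 1 to 3, a mean of 119 ± 70.9 (SD, n = 3). With SB431542 it was at 327, 498 and 192 FPKM, a mean of 339 ± 153 (SD, n = 3). The groups overlapped, since Activin A number 2 lay just above SB431542 number 3. Within each number, however, the SB431542 library was the higher, by 3.64, 2.49 and 2.85 times. SB431542 was the higher in all 3 numbers for 25.2% of the genes tested. The difference of Activin A minus SB431542 was -1.55 with a standard error of 0.47. In that table only 0.0571% of genes were called higher with Activin A and 0.0357% lower. With the replicate number as a block, the standard error of the LIN28A difference was 0.11.

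**Figure D1:**
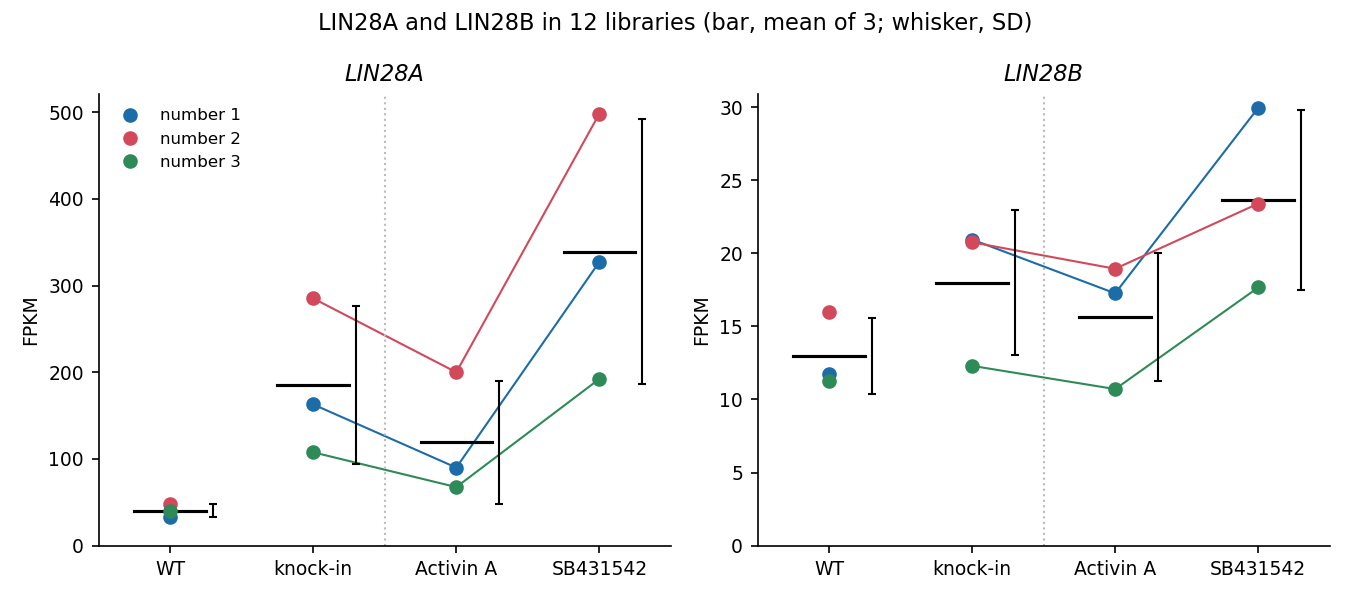
FPKM of LIN28A (left) and LIN28B (right) in each library, with points coloured by library number, lines joining the same number in knock-in, Activin A and SB431542, a black bar at the mean of 3 and a whisker of 1 SD. The dotted line parts the 2 tables, which were normalized separately; LIN28A runs from 32.8 to 47.6 FPKM in WT to 192 to 498 FPKM with SB431542, and number 3 is the lowest point in all 3 knock-in groups for both genes.

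Knock-in cells without Activin A or SB431542 lay between the treatments in every number. They were grown in medium with LIF, which the study left out in its culture tests of the treatments. An effect of medium therefore cannot be told apart from that of a treatment in these levels. Across the separately normalized tables, LIN28A with SB431542 was 2.01, 1.75 and 1.79 times the level of the same-numbered knock-in library. Untreated knock-in cells in turn had 1.81, 1.43 and 1.59 times the level with Activin A. Even the group with Activin A lay above WT without overlap, at 67.5 to 200.0 FPKM against 32.8 to 47.6 FPKM, and the ratio of those means was 2.97. The mean with SB431542 was 8.45 times that of WT. The order of the 4 means was therefore WT, Activin A, knock-in, SB431542. Of the neighbours in that order only WT and Activin A did not overlap. Activin A and knock-in differed by 0.67 on the log2 scale with a pooled SD of 0.75, and knock-in and SB431542 by 0.88 with a pooled SD of 0.69. These are bulk libraries, in which fewer cells expressing a gene and less RNA per cell cannot be told apart.

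LIN28A levels stood in the same order of library numbers in knock-in cells and in the treated groups, with 1 library per number in each group. Number 2 was the highest, number 1 came next and number 3 was the lowest in knock-in cells, with Activin A and with SB431542. That order held in all 3 groups for 3.96% of 13696 genes tested in both tables. Number 2 had 2.65 times the level of number 3 in knock-in cells, 2.96 times with Activin A and 2.59 times with SB431542. WT libraries spanned a ratio of 1.45 from the highest to the lowest. The choice of LIN28A did not use the numbers, but it used the values of the same Activin A and SB431542 libraries. The limma F test of the number in those libraries, with treatment in the fit, is therefore given as a description. It gave LIN28A an F of 61.4 and an adjusted p of 0.0389. By the same test 1.54% of 13999 genes passed at 0.05. The adjusted p of LIN28A was 0.116 when no filter on low values was used and 0.0532 when the variance trend was left out. It thus depends on those settings, and no conclusion is drawn from it.

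NANOG, the homeobox factor into which the reporter was placed, is the gene against whose treatment difference LIN28A was chosen, and the knock-in cells were sorted by its reporter. NANOG was at 9.71, 16.4 and 27.6 FPKM in WT and at 52.0, 101.1 and 70.4 FPKM in knock-in cells, a log2 difference of 2.06 (SE 0.37). With Activin A it was at 109, 195 and 157 FPKM, and with SB431542 at 11.8, 27.2 and 11.8 FPKM, a log2 difference of 3.18 (SE 0.35). Neither pair of groups overlapped, and the opposite signs of NANOG and LIN28A between the treatments are what the choice required. The tables carry NANOG on 1 identifier that is not paired with either of its loci, chr1:169064134-169065292 or chr5:62931642-62939086. WT and SB431542 cells had NANOG levels that overlapped, but their LIN28A levels lay far apart. These groups also differ in the reporter, in sorting and in relative depth, were normalized separately and may differ in medium. The part of each in the LIN28A levels was not tested. LIN28A FPKM per NANOG FPKM was 1.46 to 3.38 in WT, 1.53 to 3.13 in knock-in cells, 0.43 to 1.02 with Activin A and 16.3 to 27.8 with SB431542. Over the 12 libraries the Pearson r of log2(FPKM + 1) between LIN28A and NANOG was 0.119, a description over libraries that share groups and numbers. LIN28A was 1 of 16 genes, or 0.117% of those tested in both tables, that were higher in knock-in cells and lower with Activin A by at least 1 on the log2 scale, as its choice requires.

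**Figure D2:**
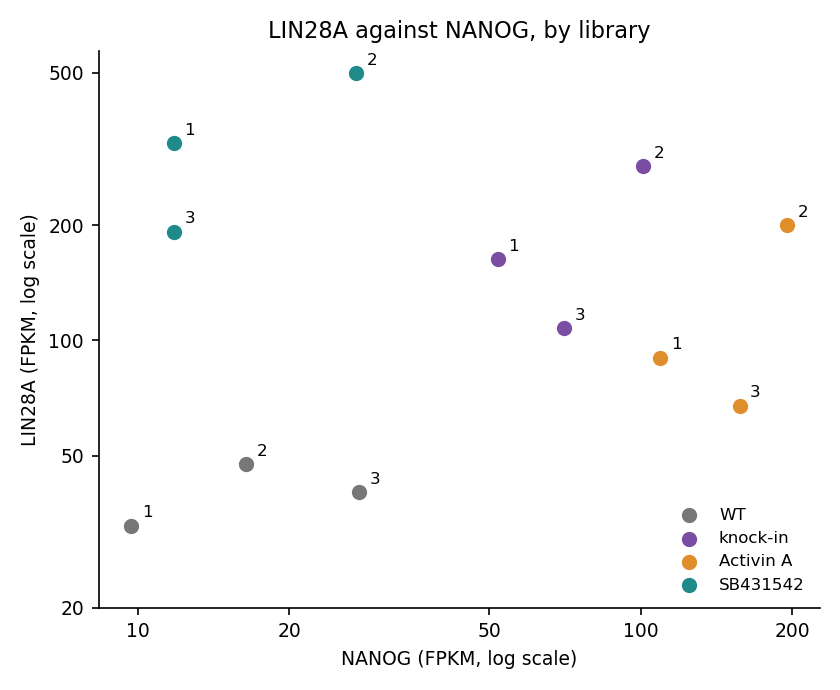
LIN28A against NANOG in the 12 libraries, both in FPKM on log axes, with points coloured by group and marked with the library number. SB431542 libraries lie at the upper left with 11.8 to 27.2 FPKM of NANOG and 192 to 498 FPKM of LIN28A, WT libraries lie at the lower left, and the Activin A libraries lie to the right of and below the knock-in library of the same number.

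Readouts of Activin signalling showed that the treatments differed. LEFTY2, a feedback inhibitor of the pathway, ran from 0.783 to 1.37 FPKM with Activin A and was listed at 0 in all 3 SB431542 libraries (limma adjusted p = 0.0424). SMAD7, an inhibitory SMAD, had means of 7.34 ± 0.698 and 1.41 ± 0.321 FPKM (SD, n = 3 each), a log2 difference of 1.80 (SE 0.14, limma adjusted p = 0.0237). The calls of LEFTY2 and SMAD7 were lost without Activin A number 2 or without SB431542 number 1 or 3, where no gene was called. Without Activin A number 1 only 1 gene was called in all, so LEFTY2 and SMAD7 did not both keep their calls there. With a filter of 1 FPKM LEFTY2 was not tested. ID1, better known as a target of BMP signalling, had a difference of 1.31 (SE 0.46) with a limma adjusted p of 0.323.

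Some markers of other cell types differed along with LIN28A, where 1.61% of all genes were called higher in knock-in cells and 0.0357% lower with Activin A. Of 7 trophectoderm markers 5 were tested in each table, and KRT8, a keratin of simple epithelia, was called higher in knock-in cells at a log2 difference of 4.13 (SE 0.75, limma adjusted p = 0.0251). With the replicate block, although WT numbers did not pair with the others, its limma adjusted p was 0.0594 and the call was lost. Summed over the list, these markers came to 7.52 to 14.5 FPKM in WT, 59.6 to 488 FPKM in knock-in cells, 66.6 to 443 FPKM with Activin A and 103 to 922 FPKM with SB431542. Most of the highest sums was KRT8, with 428 of 488 FPKM in knock-in number 2 and 835 of 922 FPKM in SB431542 number 2. KRT8 was at 96.7, 428 and 44.3 FPKM in knock-in numbers 1 to 3 and at 200.1, 835 and 90.4 FPKM with SB431542, so it followed the LIN28A order of numbers. CDX2, which defines trophectoderm, was listed at 0 in all 12 libraries, and 3 of the 5 tested members had a higher mean log2 value with Activin A. GATA2 had means of 28.9 FPKM with Activin A and 5.90 FPKM with SB431542, and TFAP2C of 9.64 and 2.88 FPKM. With the replicate block, under which 0.521% of all genes were called higher with Activin A and 0.186% lower, KRT8 was called lower (-1.21, limma adjusted p = 0.015) and GATA2 (2.28, 0.034) and TFAP2C (1.51, 0.0187) were called higher. None of the 3 was called between the treatments without the block, with limma adjusted p of 0.155 to 0.653. Of 7 pericyte markers 2 were called higher in knock-in cells, ACTA2 (2.61, SE 0.20) and PDGFRB (1.64, SE 0.21), and ACTA2, smooth-muscle actin, was called lower with Activin A (-1.13, SE 0.10, limma adjusted p = 0.0346). This treatment call of ACTA2 was lost without Activin A number 2 or without SB431542 number 1 or 3, where no gene was called. Only 1 gene in all was called without Activin A number 1, and 2 without Activin A number 3. Whether ACTA2 was among them is not given here. The pericyte sums were 28.1 to 31.5 FPKM in WT, 52.7 to 55.6 FPKM in knock-in cells, 45.0 to 51.6 FPKM with Activin A and 61.3 to 63.2 FPKM with SB431542. The fibroblast and feeder markers, of which DCN was called higher in knock-in cells, summed to 23.3 to 36.5, 44.4 to 71.4, 74.3 to 97.1 and 35.0 to 41.0 FPKM in the same order of groups. With the block the collagens COL1A2 (1.59, limma adjusted p = 0.0236) and COL3A1 (3.08, 0.0121) were called higher with Activin A. Of 10 neural progenitor markers 7 were tested, of which 5 had a higher mean log2 value in knock-in cells, with a median difference of 0.66, and NES passed upward by the adjusted p alone (0.80, limma adjusted p = 0.0192). In the other direction, in which 0.706% of all genes were called, PAX6, a factor of the neural plate, was called lower in knock-in cells (-2.17, SE 0.48, limma adjusted p = 0.0403), with means of 16.6 FPKM in WT and 2.94 FPKM in knock-in cells. The PAX6 call was lost with the replicate block, at a limma adjusted p of 0.0534. HES5, an effector of Notch signalling, was called higher with Activin A under the block (2.28, limma adjusted p = 0.00831). The neural progenitor sums were 193 to 260 FPKM in WT, 264 to 372 FPKM in knock-in cells, 281 to 520 FPKM with Activin A and 228 to 303 FPKM with SB431542. Whether these markers come from separate cells of those types was not tested. The part of any such cells, and of the lower depth of WT libraries, in the LIN28A levels was not tested either.

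LIN28B was the lower of the pair in every library and moved less. It was at 11.7, 16.0 and 11.2 FPKM in WT and at 20.9, 20.8 and 12.3 FPKM in knock-in cells. Knock-in numbers 1 and 2 lay above all WT libraries, and number 3 lay among them. The log2 difference was 0.42 (SE 0.23, 95% interval -0.11 to 0.95) with a limma adjusted p of 0.264, and the exact two-sided permutation p was 0.2, where 3 against 3 libraries allow no less than 0.1. LIN28B was thus not called in either direction.

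With Activin A, LIN28B was at 17.3, 18.9 and 10.7 FPKM, and with SB431542 at 30.0, 23.4 and 17.7 FPKM. The groups overlapped, but as for LIN28A the SB431542 library was the higher in each number, by 1.73, 1.24 and 1.65 times. The difference of Activin A minus SB431542 was -0.57 (SE 0.25, 95% interval -1.18 to 0.03) with a limma adjusted p of 0.415 and an exact permutation p of 0.2 for unpaired libraries. With the replicate number as a block the same difference had an SE of 0.11 and a 95% interval of -0.85 to -0.30, which leaves out 0, and a limma adjusted p over all genes of 0.0676. Without 1 library it ran from -0.76 to -0.34, the latter without Activin A number 3, and that of knock-in minus WT from 0.30 to 0.66, the latter without knock-in number 3. The order of the 4 means was that of LIN28A, with 13.0 ± 2.62 in WT, 15.6 ± 4.35 with Activin A, 18.0 ± 4.94 in knock-in cells and 23.7 ± 6.15 FPKM with SB431542 (SD, n = 3 each). Every pair of neighbours in that order overlapped, and only WT and SB431542 did not. Number 3 was the lowest for LIN28B too in the 3 knock-in groups, but number 2 was the highest only with Activin A, and number 1 led in knock-in cells (20.94 against 20.75 FPKM) and with SB431542. The limma test of the number gave an F of 15.5 and an adjusted p of 0.102.

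Because FPKM is scaled to length, the 2 genes can be set side by side. LIN28A FPKM per LIN28B FPKM was 2.79, 2.97 and 3.57 in WT and 7.78, 13.7 and 8.76 in knock-in cells. It was 5.21, 10.6 and 6.30 with Activin A and 10.9, 21.3 and 10.9 with SB431542. LIN28A thus made up 73.6% to 78.1% of the summed FPKM of the pair in WT and 91.6% to 95.5% with SB431542, and the values of number 2 were the highest in each knock-in group. Ranked by FPKM among all genes of a library, LIN28A stood at place 1143 to 1764 in WT and at 93 to 248 with SB431542. LIN28B stood at place 3872 to 5329 in WT and at 2140 to 3617 with SB431542. Over the 12 libraries the Pearson r of log2(FPKM + 1) between the genes was 0.84. Among 3099 genes that vary enough to be ranked, LIN28B held place 193 by likeness to LIN28A, and LIN28A place 38 by likeness to LIN28B.

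Of 22 genes that make or break down let-7, or act with LIN28 proteins on its precursors, 20 had an identifier and were tested, 1 was called higher in knock-in cells and none lower, against 1.61% and 0.706% of all genes, and the median difference was 0.00 against -0.001 over all genes. The enzymes that cut the precursors, DROSHA and DICER1, had differences of -0.17 (SE 0.11) and 0.07 (SE 0.12). TUT4 and TUT7, the uridylyltransferases that work with LIN28A, had differences of -0.28 (SE 0.15) and -0.16 (SE 0.13), and DIS3L2, the nuclease that degrades uridylated precursors, of -0.04 (SE 0.11), all with limma adjusted p above the threshold. By the adjusted p alone, which 4.88% of all genes passed upward and 2.34% downward, 2 of the 20 were higher and 2 lower. The lower ones were TENT2, a cytoplasmic nucleotidyltransferase, at -0.67 (SE 0.11, limma adjusted p = 0.0217) and MSI1, an RNA-binding protein that works with LIN28A in holding back let-7, at -0.57 (SE 0.11, limma adjusted p = 0.0331). The higher ones were TRIM71 and ELAVL1.

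TRIM71, an RNA-binding ubiquitin ligase that is itself a classical let-7 target, was the processing gene called. It (ENSSSCG00000036996, chr13:18762043-18835788) was at 3.37, 3.60 and 3.33 FPKM in WT and at 8.91, 11.4 and 10.3 FPKM in knock-in cells. The groups lay apart, with a log2 difference of 1.33 (SE 0.14, limma adjusted p = 0.00562). With Activin A it was at 6.71, 7.28 and 5.90 FPKM and with SB431542 at 11.8, 13.8 and 11.6 FPKM. These groups lay apart as well, which they did in this direction for 10.8% of genes, and TRIM71 was higher with SB431542 by 1.76, 1.90 and 1.96 times in numbers 1 to 3. The difference was -0.81 (SE 0.12) with a limma adjusted p of 0.0737, and with the replicate block it was 0.0236 with the difference still under 1, so TRIM71 was not called. Its 4 means stood in the order of LIN28A, and its Pearson r with LIN28A over the 12 libraries was 0.932, place 33 of 3099.

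The let-7 microRNAs themselves cannot be read from these libraries, which were made with oligo(dT) from polyadenylated RNA. The tables list 10 genes of the family, of which 6 were at 0 in all 12 libraries. The highest, let-7d, ran from 0.815 to 8.05 FPKM. The amount of mature let-7 beside each LIN28A level was not measured.

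Of 36 mRNAs known as let-7 targets 33 were tested, and 3 were called higher in knock-in cells and none lower, TRIM71 being one of them, against 1.61% and 0.706% of all genes. CCND1, the G1 cyclin D1, was at 44.5, 46.5 and 49.7 FPKM in WT and at 106, 112 and 101 FPKM in knock-in cells, a log2 difference of 1.16 (SE 0.09, limma adjusted p = 0.00198). IRS2, an adaptor of insulin and IGF receptors, was at 2.33, 1.75 and 3.01 FPKM in WT and at 5.14, 5.71 and 8.94 FPKM in knock-in cells, also a difference of 1.16 (SE 0.23, limma adjusted p = 0.0327). The IRS2 call was lost without knock-in number 1, 2 or 3 or WT number 1 or 2, with a limma adjusted p of up to 0.0873, and was 0.0604 without the filter. By the adjusted p alone, passed upward by 4.88% of all genes, CCND2 (0.58), CDK6 (0.76) and IGF1R (0.49) were higher too, a cyclin, its kinase partner and the IGF1 receptor. In all, 26 of the 33 had a higher mean log2 value in knock-in cells, with a median difference of 0.38 against -0.001 over all genes. INSR, the insulin receptor (0.69, SE 0.18), and NR6A1, an orphan nuclear receptor (0.60, SE 0.27), were among those that did not pass, with limma adjusted p of 0.0603 and 0.192.

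Between Activin A and SB431542 none of the 33 let-7 targets was called by limma, where 0.0571% of all genes were called higher and 0.0357% lower. At an unadjusted p under 0.05, which 12.8% of all genes reached, 9 of the 33 were lower with Activin A and 1 higher. Activin A was the lower in all 3 numbers for 16 of the 33, as it was for 25.2% of all genes, and the median difference was -0.17 against -0.004 over all genes. NR6A1 had the widest difference, with 5.96, 11.5 and 6.03 FPKM with Activin A and 14.8, 19.98 and 10.4 FPKM with SB431542 (-0.88, SE 0.30, limma adjusted p = 0.318). NR6A1 was highest in number 2 in each knock-in group, as LIN28A was. CDK6 was at 3.21, 2.85 and 3.05 FPKM with Activin A and at 6.51, 5.18 and 4.23 FPKM with SB431542 (-0.63, SE 0.15, limma adjusted p = 0.191), and its groups did not overlap. INSR was at 3.77, 3.79 and 3.76 FPKM against 5.36, 5.56 and 5.10 FPKM (-0.41, SE 0.09, limma adjusted p = 0.177). CCND1 and IRS2, called in the knock-in comparison, had differences of -0.11 (SE 0.10) and 0.38 (SE 0.31) between the treatments and so did not share the treatment pattern of LIN28A. MYC, a reprogramming factor whose transgene could not be told apart from the gene, was at 232, 252 and 311 FPKM with Activin A and 192, 182 and 225 FPKM with SB431542, opposite to LIN28A.

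**Figure D3:**
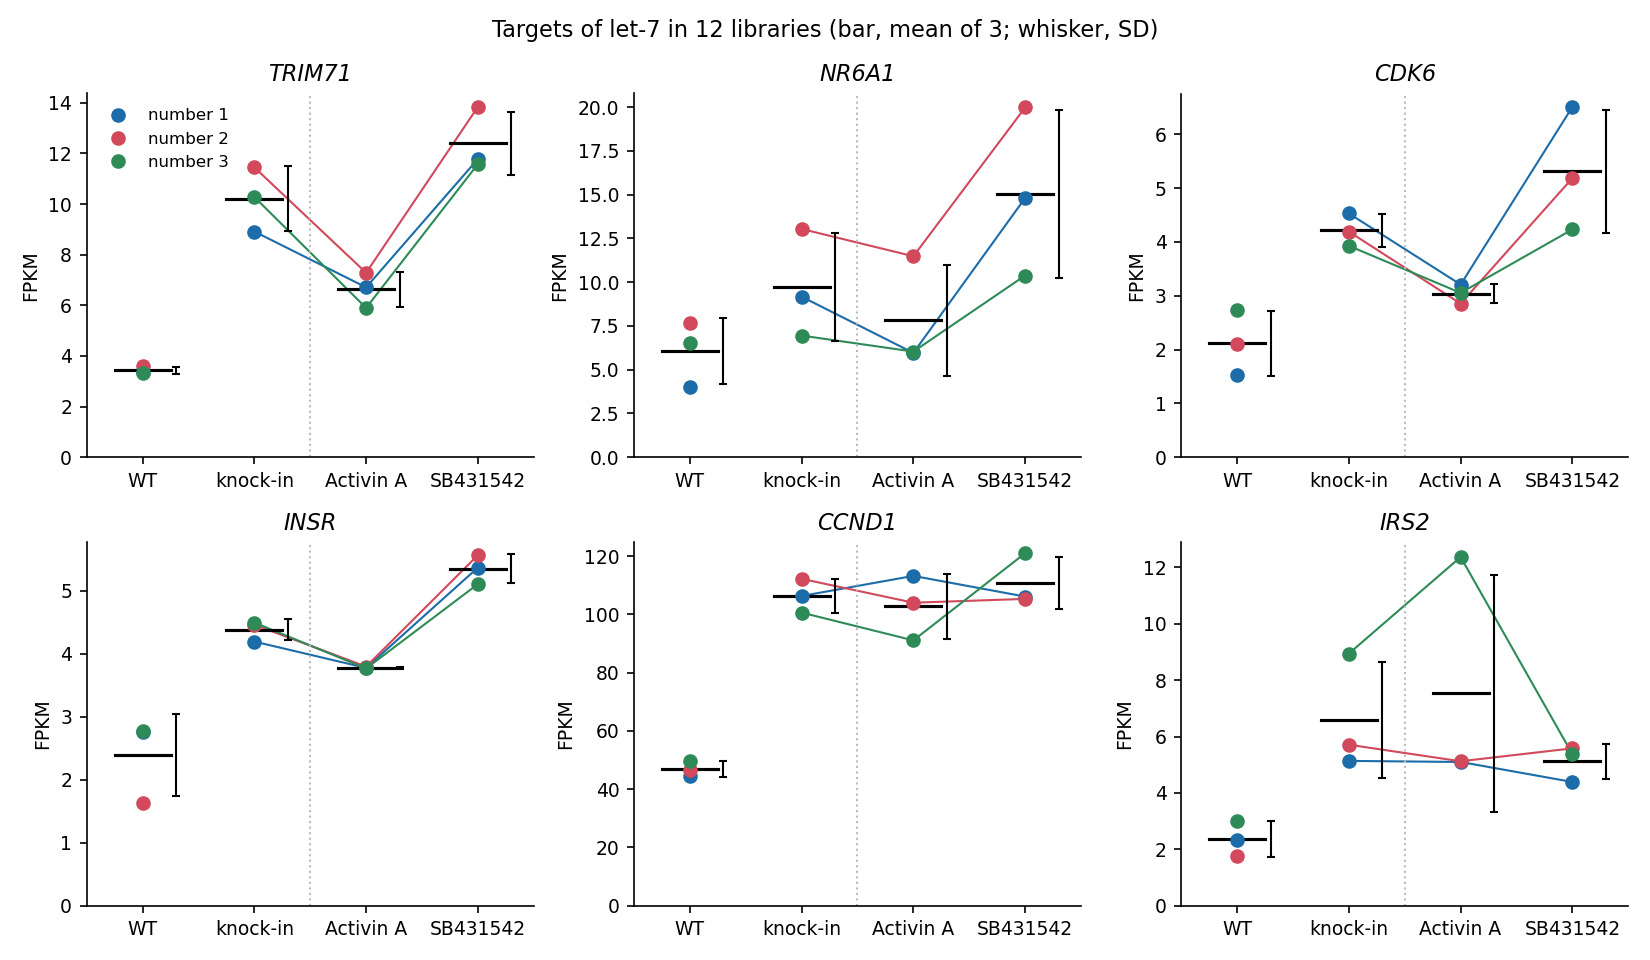
FPKM of 6 let-7 targets in each library, drawn as for LIN28A and LIN28B, with points coloured by number, a black bar at the mean of 3 and a whisker of 1 SD. TRIM71, NR6A1, CDK6 and INSR are higher with SB431542 than with Activin A in every number, whereas CCND1 and IRS2 are not; in TRIM71 the WT points lie between 3.33 and 3.60 FPKM and those with SB431542 between 11.6 and 13.8 FPKM.

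Of 16 mRNAs that LIN28 proteins are known to bind 11 were tested, and none was called by limma in either comparison. At an unadjusted p under 0.05, 3 of the 11 were higher and 1 was lower in knock-in cells, and 1 was lower with Activin A. Over all genes 28.6% passed that threshold in either direction in the knock-in comparison and 12.8% between the treatments, and these counts lay near those shares. In the knock-in comparison SDHA, a subunit of succinate dehydrogenase (0.41, SE 0.09, limma adjusted p = 0.0459), was among those that passed the adjusted p alone. HMGA1, on both this list and that of let-7 targets, had means of 442 and 549.7 FPKM in WT and knock-in and of 455 and 573 FPKM with Activin A and SB431542, with limma adjusted p of 0.227 and 0.35. A change in translation, which LIN28 proteins are known for, would not be seen in these values.

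Taken over the 3 lists, 61 of 71 genes had an identifier and all 61 were tested. In knock-in cells 3 were called higher and none lower, against 1.61% and 0.706% of all genes, with a median difference of 0.14. Between the treatments none was called by limma, where 0.0571% of all genes were called higher and 0.0357% lower, and the median was -0.02. At an unadjusted limma p under 0.05, which 12.8% of all genes reached in either direction, 11 were lower with Activin A and 1 was higher. With the replicate block none was called lower, which 0.186% of all genes were. By the blocked adjusted p alone 3 were lower, AGO3, TRIM71 and NR6A1, and 1 was higher, MYC. Over all genes 1.21% were lower and 1.66% higher by that measure. AGO3, an Argonaute protein that carries microRNAs, had means of 24.6 ± 2.06 FPKM with Activin A and 42.4 ± 4.05 FPKM with SB431542 (SD, n = 3 each), a difference of -0.76 (SE 0.10, limma adjusted p = 0.0701, blocked 0.0168).

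**Figure D4:**
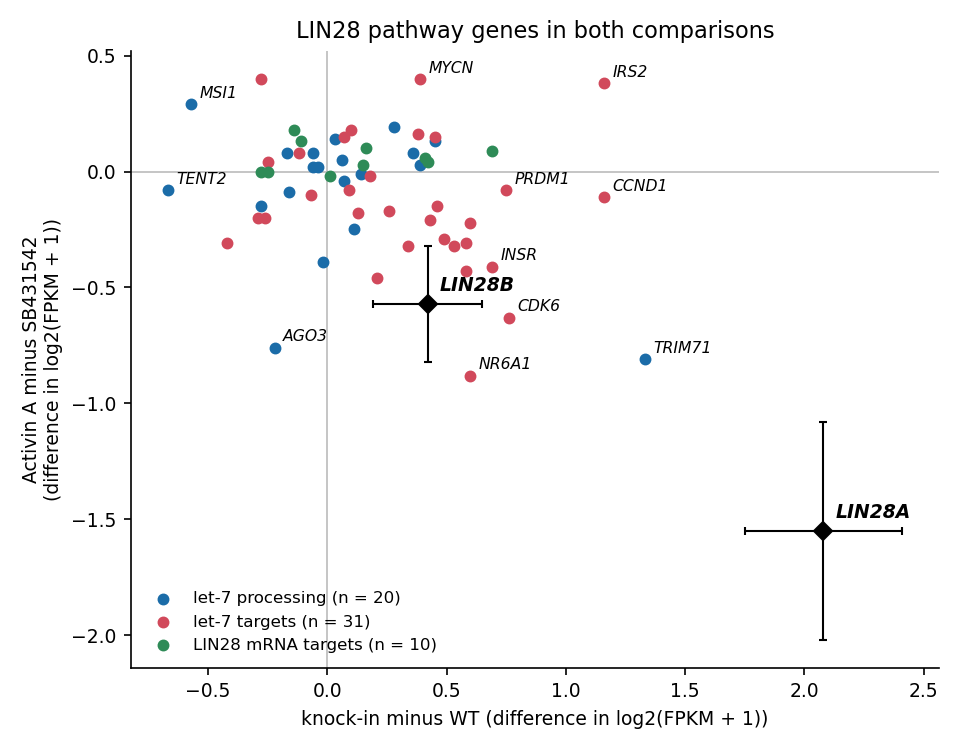
Difference in mean log2(FPKM + 1) of knock-in minus WT (horizontal) against Activin A minus SB431542 (vertical) for 61 genes of the LIN28 pathway, coloured by list, with LIN28A and LIN28B as diamonds with their standard errors. A gene on several lists is drawn once, in the colour of the first; LIN28A at 2.08 and -1.55 lies farthest to the lower right and TRIM71 at 1.33 and -0.81 lies next in that direction.

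Of 11 factors known to act on the LIN28 genes 10 were tested. Leaving aside NANOG, which has no test here, none was called in either comparison, against 1.61% and 0.706% of all genes called higher and lower in knock-in cells and 0.0571% and 0.0357% with Activin A. SOX2 was higher in knock-in cells by the adjusted p alone, as 4.88% of all genes were (0.60, SE 0.10, limma adjusted p = 0.0201), with means of 43.4 ± 3.67 and 66.3 ± 2.06 FPKM (SD, n = 3 each), and differed by -0.16 (SE 0.09) between the treatments. SOX2 is also a reprogramming factor. TCF7L1, a repressor in the Wnt pathway, had differences of -0.33 (SE 0.15) and 0.64 (SE 0.23), and SALL4, a zinc finger factor of pluripotent cells, of -0.01 (SE 0.12) and -0.51 (SE 0.15). MYCN had differences of 0.39 (SE 0.17) and 0.40 (SE 0.19), ESRRB of 0.80 (SE 0.37) and 0.33 (SE 0.49), and TET1 of -0.46 (SE 0.18) and 0.02 (SE 0.10). None of these 5 genes passed the limma adjusted p in either comparison.

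Ranked by Pearson r of log2(FPKM + 1) over the 12 libraries, the genes most like LIN28A included ACTN1 (0.987), TENT5B (0.987), SOX13 (0.979) and PKDCC (0.976). ACTN1, the actin cross-linker alpha-actinin, ran from a mean of 31.8 ± 0.954 FPKM in WT to 60.0 ± 15.1 with Activin A, 74.6 ± 18.6 in knock-in cells and 93.6 ± 23.1 with SB431542 (SD, n = 3 each). The genes most opposed to LIN28A were CBLN1 (-0.971), RGS16 (-0.971), TMTC2 (-0.97), RIC3 (-0.966) and MTCL1 (-0.965). CBLN1 ran from a mean of 86.7 FPKM in WT to 15.5 FPKM with SB431542. For LIN28B the most alike were MSRB3 (0.983), PSPH (0.946), ITGA9 (0.939), NRIP1 (0.934) and PAWR (0.93), and the most opposed IFNAR1 (-0.965), KLHL13 (-0.962), RNF157 (-0.949), TMEM132E (-0.949) and CDK19 (-0.939). None of the 10 names ranked for LIN28A was among the 10 ranked for LIN28B. These values describe 12 libraries that share groups, numbers and 2 separately normalized tables.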

How the data were processed

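RNA from pig PC-iPS cells was sequenced in 12 libraries, 3 per group, after feeder removal and oligo(dT) selection. The authors deposited FPKM per gene, made from trimmed reads aligned to Ssc11.1 with HISAT2 2.0.4 and assembled with StringTie 1.3.3 on an Ensembl annotation. They tested read counts from featureCounts 1.6.4 with DESeq2, and those counts were not used here, so the test planned for FPKM was used and counting error is unknown. Columns with the authors' comparisons were not used.

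Within each table, genes reaching 0.1 FPKM in 3 of the 6 libraries were kept, and log2(FPKM + 1) was fitted with limma 3.58.1 (variance trend, two-sided, Benjamini-Hochberg over all genes tested) in R 4.3.3. Fold changes are on that scale, which understates low genes. A call needed an absolute difference of 1 or more and an adjusted p no higher than 0.05. LIN28B also had an exact permutation test. Python 3.11.15 and matplotlib 3.10.9 were used otherwise, and the fits were tested on simulated data.

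Pairing of libraries comes from their numbers. Across genes, deviations from the group means correlated at 0.40, 0.587 and 0.535 for same-numbered Activin A and SB431542 libraries, and at 0.51 to 0.67 between them and the knock-in libraries. The number therefore served as a block in an alternative fit and as the term tested in a moderated F test.

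The members, the gene lists and the markers were chosen with earlier results of these data known. Named genes are LIN28A, LIN28B, NANOG, LEFTY2, SMAD7, ID1, list members called, up to 4 others per list with the largest difference, and the 5 most and least alike, of which a few are not reported here. Other genes were named after their values were seen. Symbols came from the deposited tables and a gene name table, and 123 of 136 list genes had an identifier. Alternatives were other pseudocounts (0.1, 0.01), other filters (none, 1 FPKM), rescaling (TPM, median ratio, quantile), no variance trend, the block, leaving out each library, and the adjusted p alone.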

Additional observations from a re-analysis of the deposited data

How the results depend on the processing

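The LIN28A difference of knock-in minus WT ran from 1.71 to 2.41 without each library in turn and from 1.97 to 2.13 under 9 other alternatives. That of Activin A minus SB431542 ran from -2.00 to -1.22 and from -1.59 to -1.54. The LIN28B differences ran from 0.30 to 0.66 and from -0.76 to -0.34 without each library. LIN28B kept its direction and was not called under any alternative, with limma adjusted p of 0.0862 to 0.539 and 0.0676 to 0.662. TRIM71 and CCND1 were called in knock-in cells under every alternative tried. The F test of the number for LIN28A, given as a description, had an adjusted p of 0.116 without a filter and 0.0532 without the variance trend. The cause of the differences between numbers was not tested.

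Counts of called genes moved more. Against 324 in knock-in and WT, there were 538 and 501 at pseudocounts of 0.1 and 0.01, 199 without a filter, 1012 by the adjusted p alone and 145 to 446 without each library. Against 13 between the treatments, there were 8 at a pseudocount of 0.01, 5 without a filter, 5 with a filter of 1 FPKM, 7 without the variance trend and 0 to 5 without each library. With the replicate block there were 99, and 403 by the blocked adjusted p alone, an alternative added after seeing the data. The 3 pathway genes called in knock-in cells became 11 by the adjusted p alone, 4 by the blocked adjusted p alone and 2 to 3 without each library. The count of 0 between the treatments became 4 by the blocked adjusted p alone and stayed 0 without each library. Knock-in and WT numbers did not pair (correlations of -0.018, 0.009 and 0.094), and the block there gave 232 calls. The block changed no call of LIN28B or of a pathway gene. Among the cell type markers in the knock-in comparison, it ended the calls of KRT8 and PAX6 and added that of ANPEP, a pericyte marker. Scalings moved the median of all genes by less than 0.03. With 3 libraries per group and unknown depth, the LIN28B difference of knock-in minus WT could not be told from the spread of unpaired libraries. Between the treatments, whose numbers paired, the blocked 95% interval of LIN28B was -0.85 to -0.30. Its blocked limma adjusted p was 0.0676, so it was not called.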

Other observations

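LIN28A was 1 of 16 genes that were higher in knock-in than in WT cells and lower with Activin A than with SB431542 by at least 1 on the log2 scale. They were picked by these values, which are a description, and 14 have symbols. For all 16 the SB431542 library was the higher in each of the 3 numbers. VCL, vinculin, which links actin to focal adhesions, had group means of 21.7 FPKM in WT, 64.7 in knock-in cells, 34.0 with Activin A and 93.3 with SB431542. PRTG, protogenin, a receptor of the early embryo, had means of 5.17, 20.4, 11.3 and 44.0 FPKM in the same groups, and PKDCC, a secreted kinase, of 2.39, 23.5, 10.6 and 46.7 FPKM. LMOD1, an actin nucleator of smooth muscle, had means of 0.13, 3.20, 1.51 and 4.30 FPKM. The others with symbols were ACTA2, C11orf54, CEBPB, CHAC1, COLEC12, FIGNL2, HNF4G, KRT8 and LRRC10B. By comparison, 30 genes were higher by at least 1 in both knock-in and Activin A, the pattern of NANOG.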
